A study of Mus musculus with 15 samples.

Results

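The genes of the cytosolic ribosomal proteins were examined across 5 lines of LL2, a mouse Lewis lung carcinoma cell line. A gene was a member if its symbol names a numbered protein of the large (Rpl) or small (Rps) ribosomal subunit, or is Rplp0, Rplp1, Rplp2 or Rpsa, and if its mean over the 15 samples was at least 1 TPM (a level per transcript length, scaled to the same total in every sample). This gave 76 of the 35880 genes measured, 46 of the large and 30 of the small subunit. All 76 genes with a matching symbol passed the level threshold (the lowest, Rpl5, averaged 87.8 TPM, and no matching gene lay outside it), and all 76 entered the tests. Pseudogenes were left out by their names, and ribosomal proteins with other names, among them Rps3a1, Fau and Rack1, are given apart.

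Poly-A RNA was sequenced from the parental luciferase line LL2/Luc2 (LL2 WT), from 3 clones in which CRISPR was aimed at Keap1 (*KEAP1* KO #1, #2 and #3) and from 1 clone in which it was aimed at Nfe2l2, the gene of NRF2 (*NRF2* KO), with 3 biologic replicates each and no drug treatment. KEAP1 holds the transcription factor NRF2 for degradation, so the question was what changes in the cells' RNA when NRF2 is active or lost. Each KO line grew from a single cell that had taken up a plasmid with Cas9, GFP and a guide, and the replicates of a line are samples of that one clone. A difference between *NRF2* KO and LL2 WT therefore cannot be told apart from a difference between a clone and its parent. The *KEAP1* KO lines are clones too, and no clone without a targeted gene was sequenced. A difference that all 3 share against LL2 WT can therefore hold a part from cloning, which was not tested. The p-values measure the spread between samples of a line, not between clones.

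Keap1 measured 24.0, 22.0 and 22.9 TPM in LL2 WT, 10.8 to 12.5 TPM in *KEAP1* KO #1, and 3.78 to 7.29 TPM in *KEAP1* KO #2 and #3, and 21.6 to 24.8 TPM in *NRF2* KO. Nfe2l2 measured 179, 170 and 208 TPM in LL2 WT and 102, 108 and 146 TPM in *NRF2* KO (log2 fold change −0.66, limma adjusted p = 0.0301), and 87.0 to 124 TPM in the *KEAP1* KO clones. Nqo1, an NRF2 target, rose from 26.1–36.5 TPM in LL2 WT to 253–545 TPM in the *KEAP1* KO clones and measured 8.55 to 10.96 TPM in *NRF2* KO. The lung epithelial markers Epcam, Cdh1, Nkx2-1 and Sftpc averaged under 0.2 TPM in every line, while Krt8, Krt18 and Vim were expressed. The summed level of these 7 lung and tumor cell markers ran from 4038 to 6089 TPM in LL2 WT, 1931 to 2464 TPM in *KEAP1* KO #1, 2098 to 2506 TPM in #2, 2149 to 2665 TPM in #3 and 3515 to 4836 TPM in *NRF2* KO. Vim, an intermediate filament gene of mesenchymal cells, was lower in the 3 clones (−1.19, −1.33 and −1.27, limma adjusted p = 0.000437, 0.000107 and 0.000143). Krt8 was called lower in #1 (−0.44) but higher in #2 and #3 (0.76 and 0.43), against the direction of the sum. The summed level of 5 markers of other cell types (Ptprc, Cd68, Pecam1, Col1a1 and Acta2) ran from 5.38 to 9.32 TPM in LL2 WT, 10.0 to 14.9 TPM in *KEAP1* KO #1, 13.4 to 28.6 TPM in #2, 18.8 to 41.6 TPM in #3 and 6.74 to 9.59 TPM in *NRF2* KO. Of these 5, Col1a1, at a mean of 0.46 TPM in LL2 WT, was lower in #2 and #3 (−1.69 and −1.92, limma adjusted p = 0.0337 and 0.019). Cd68, a macrophage and lysosome marker, measured 1.94, 2.15 and 4.45 TPM in LL2 WT and 13.9, 15.5 and 36.5 TPM in #3, while Ptprc, which defines leukocytes, stayed at or under 0.19 TPM in all 15 samples, and the part of these cell types and of the lung and tumor markers in the results was not tested. The approximate depth, read from the step size of low values, was 19.1 M fragments in *KEAP1* KO #3 replicate 1 and 60.2 M in *NRF2* KO replicate 2, with the other samples between them.

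Ribosomal proteins and ribosomal RNA form the small subunit, which reads the messenger RNA, and the large subunit, which joins amino acids. Their genes are among the most strongly transcribed genes of a growing cell. Their mRNAs are known for a start made of a C and a run of pyrimidines, the terminal oligopyrimidine (TOP) tract, through which mTOR and LARP1 control their translation and stability.

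The starts below show this tract in the members that the comparisons turn on. RefSeq start windows for GRCm38.p6 were found for 56 of the 76 members (66 windows). Each line gives 10 bases before and 20 bases from an annotated start, 5′ to 3′, and capitals mark the C at the start and the pyrimidines that follow it without a break. The first 6 genes were called lower in all 3 *KEAP1* KO clones (tests below), Rpl28 had the largest fall in *KEAP1* KO #2, and Rpl35a carries the tract and was called in no clone.
Rps6 (chr4:86857348-86857377, minus strand): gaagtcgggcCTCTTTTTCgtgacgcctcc
Rps18 (chr17:33955646-33955675, minus strand): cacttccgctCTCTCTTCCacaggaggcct
Rps10 (chr17:27635225-27635254, minus strand): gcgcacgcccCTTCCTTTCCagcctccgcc
Rpl38 (chr11:114668570-114668599, plus strand): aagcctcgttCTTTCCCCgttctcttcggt
Rpl15 (chr14:18270967-18270996, minus strand): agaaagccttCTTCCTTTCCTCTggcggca
Rpl35 (chr2:39005112-39005141, minus strand): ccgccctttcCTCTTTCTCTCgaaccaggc
Rpl28 (chr7:4792955-4792984, plus strand): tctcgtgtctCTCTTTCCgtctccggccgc
Rpl35a (chr16:33056472-33056501, plus strand): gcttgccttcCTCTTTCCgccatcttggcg

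A C followed by at least 4 pyrimidines stood exactly at the annotated start in 13 of the 66 member windows (19.7%), against 2.505% of all 32851 windows. Within 5 bases of the start the shares were 43.9% and 18.4%. The motif CCGGAAG, an ETS-type sequence searched on both strands of the 300-base window, was in 36.4% of member windows, 8.86% of all windows and 18.5% of the windows of other genes at 1 TPM or more. TGACNNNGC, the core of the antioxidant response element that NRF2 binds, was in 18.2% of member windows, 12.4% of all windows and 14.3% of the windows of other genes at 1 TPM or more. TATAAA was in 9.09%, 13.6% and 6.89% of them, so the members lay below all windows but above those of other expressed genes. In *KEAP1* KO #2 the median log2 fold change was −0.45 in the 13 members with the tract at the start, −0.41 in the 14 with one within 5 bases and −0.39 in the members with none there. The 249 other genes at 1 TPM or more with a tract at the start had a median of −0.08, and the 6740 with none within 5 bases had 0.05. The 20 members without a window had −0.50. In the same order (at the start, within 5 bases, none there) the members' medians were −0.33, −0.26 and −0.24 in *KEAP1* KO #1. In *KEAP1* KO #3 they were −0.36, −0.43 and −0.34. The part of the tract in these medians was not tested.

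The members were among the most abundant mRNAs, but their order depended on near-identical genes. The highest mean levels were those of Rps2 (7069 TPM), a small-subunit protein at the mRNA entry, then Rps29 (5220 TPM), Rps18 (5159 TPM), the stalk protein Rplp1 (5086 TPM) and Rpl23a (4937 TPM), which lies at the tunnel exit. The lowest were Rpl5 (87.8 TPM) and Rpl12 (138 TPM), followed by Rpl11 (529 TPM), Rpl35 (560 TPM) and Rpl10a (586 TPM). The mRNA levels of members thus differed 80.5-fold, and the SD over members was 1.08 on the log2 scale.

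Several of the low levels belonged to genes with a near-identical copy under another name. Of all rows, 94 share at least 80% of their 31-base words with a member, and 24 of these averaged 20 TPM or more. Rpl5 held 3.19% of the TPM of itself and its near-identical row, Gm15500, which measured 2667 TPM. Rpl12 held 2.96%, against 4524 TPM for Gm10275, and Rps23, Rpl27a and Rpl35 held 19.1%, 19.6% and 16.8%. In 11 members less than 50% stood in the gene's own row. With these rows added, levels ran from 782 TPM (Rpl37) to 7096 TPM (Rps2), a 9.08-fold range with an SD of 0.64 on the log2 scale, and members under 1000 TPM went from 11 to 2. The rows of these members are uncertain, since pseudoalignment can split reads between copies.

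**Figure D1:**
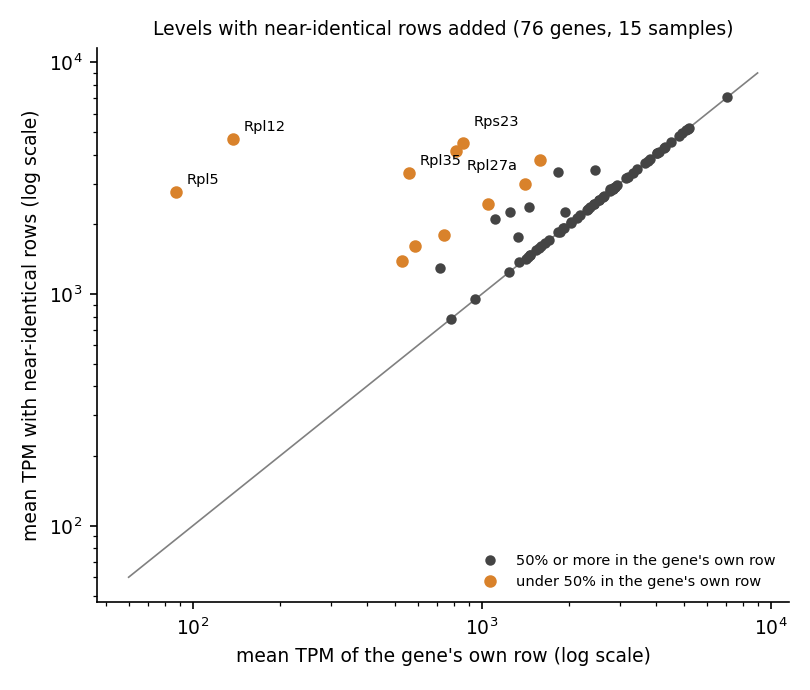
Mean TPM of each of the 76 genes over the 15 samples in its own row (horizontal, log scale) against the sum with its near-identical rows (vertical, log scale), with the grey line marking equality and orange points marking the 11 genes with less than 50% in their own row. Rpl5 and Rpl12 sit at 87.8 and 138 TPM on the horizontal axis and at 2755 and 4663 TPM on the vertical axis.

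The members made up a smaller share of the mRNA in the *KEAP1* KO clones than in LL2 WT. In LL2 WT the 76 genes took 20.8%, 19.2% and 23.8% of all TPM in replicates 1, 2 and 3, a mean of 21.3% ± 2.34 (SD, n = 3). In *KEAP1* KO #1 they took 18.3%, 17.1% and 17.5%, a mean of 17.6% ± 0.632. In *KEAP1* KO #2 they took 15.9%, 15.7% and 16.9%, a mean of 16.1% ± 0.628. All 6 of these samples lay below every LL2 WT sample. In *KEAP1* KO #3 they took 16.0%, 16.2% and 16.9%, a mean of 16.3% ± 0.46, and in *NRF2* KO 19.0%, 18.9% and 20.7%, a mean of 19.6% ± 0.979. All 9 samples of the *KEAP1* KO clones were below every LL2 WT sample, while *NRF2* KO overlapped LL2 WT.

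The KO share minus the LL2 WT share was −3.67 percentage points in *KEAP1* KO #1, −5.14 in #2, −4.94 in #3 and −1.72 in *NRF2* KO, and the KO lines had 0.827, 0.759, 0.768 and 0.919 times the LL2 WT share. LL2 WT replicate 3 was the highest of the 15 samples, and without it the LL2 WT mean was 20%. Both subunits shared in the difference: the large subunit went from 11.5% of TPM in LL2 WT to 9.64%, 8.62% and 8.74% in the clones, and the small subunit from 9.75% to 7.97%, 7.52% and 7.59%. With the near-identical rows added, the shares were 25.2% in LL2 WT, 20.7%, 18.9% and 19.2% in the clones and 22.9% in *NRF2* KO. Mitochondrially encoded genes took 3.03% of TPM in LL2 WT, 3.11%, 4.68% and 4.86% in the clones and 3.15% in *NRF2* KO, and their part in the shares was not tested. These are values of bulk RNA, in which fewer cells of a type and less RNA per cell cannot be told apart, and a share says nothing of the amount of RNA in a cell.

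**Figure D2:**
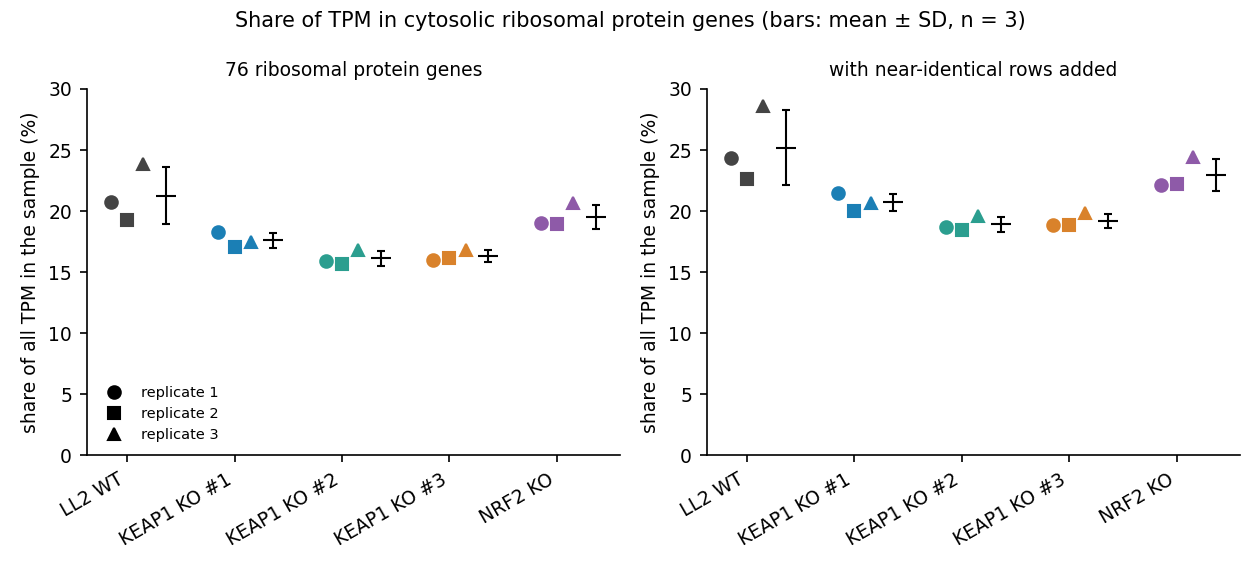
Share of all TPM (%) in the 76 ribosomal protein genes (left) and with their near-identical rows (right) for each of the 15 samples, with symbols for replicates 1 to 3 and bars for mean ± SD (n = 3). On the left the 9 *KEAP1* KO samples lie between 15.7% and 18.3%, below the 3 LL2 WT samples at 19.2% to 23.8%, and *NRF2* KO lies at 18.9% to 20.7%.

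Differences between lines were tested gene by gene with limma on log2(TPM + 0.1), so fold changes are on that scale, over 14652 genes. A gene was called where its p, after Benjamini-Hochberg adjustment, was under 0.05. In *KEAP1* KO #1, 28 of the 76 members (36.8%) were called lower and 0 higher, where 7.25% of all genes were lower and 15.9% higher. In *KEAP1* KO #2, 55 members (72.4%) were lower and 0 higher, against 14.6% and 17.3% of all genes. In *KEAP1* KO #3, 53 members (69.7%) were lower and 1 was higher (Rps12), against 14.8% and 16.6% of all genes. Without any threshold, the log2 fold change was below 0 in 72, 73 and 72 of the 76 members in the 3 clones. An unadjusted p under 0.05 was reached by 42, 61 and 61 members, in either direction.

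The median log2 fold change of the members was −0.24 in *KEAP1* KO #1, −0.42 in #2 and −0.43 in #3, beside 0.11, 0.03 and 0.02 over all genes tested. Scaling the samples by median ratios took the all-gene median of *KEAP1* KO #1 from 0.11 to 0.01. Relative to the median of all genes, the members stood at −0.36, −0.44 and −0.45 under both scalings and at −0.13, −0.32 and −0.31 after quantile normalization. The subunits had medians of −0.27, −0.42 and −0.41 for the large and −0.24, −0.43 and −0.43 for the small subunit. Calls numbered 17, 32 and 32 of 46 large-subunit members and 11, 23 and 21 of 30 small-subunit members. Members grouped by mean TPM into a low, a middle and a high group had medians of −0.46, −0.39 and −0.42 in *KEAP1* KO #2. The median transcript length of the members was 704 bases. The other genes of 500 to 1000 bases at 1 TPM or more had medians of 0.10, −0.0038 and 0.02 in the 3 clones, and the 202 other genes at 500 TPM or more had 0.03, 0.06 and 0.05. The part of length and level in the members' differences was not tested.

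Each clone can also be read without a model. All 3 samples lay below every LL2 WT sample in 47 members in *KEAP1* KO #1, 60 in #2 and 61 in #3, where the same held for 12.4%, 18.6% and 18% of all genes. All 9 *KEAP1* KO samples lay below every LL2 WT sample in 41 members, against 7.69% of all genes. Without LL2 WT replicate 3 these counts were 48, 61 and 62, against 17.1%, 24.9% and 24.7% of all genes, and 43 over all 9 samples, against 10.8%.

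The number of calls depended on the LL2 WT samples and on how the spread was estimated. It was 16, 43 and 41 without LL2 WT replicate 3, where 5.603%, 12.28% and 12.94% of all genes were lower, and 1, 21 and 20 when only the clone and LL2 WT entered the fit, where 3.93%, 9.8% and 8.62% of all genes were lower. In *KEAP1* KO #1 it was also 16 without LL2 WT replicate 1, 43 without replicate 2, 11 without the clone's own replicate 2 and 13 without its replicate 3, against 4.778%, 8.743%, 3.904% and 6.429% of all genes.

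**Figure D3:**
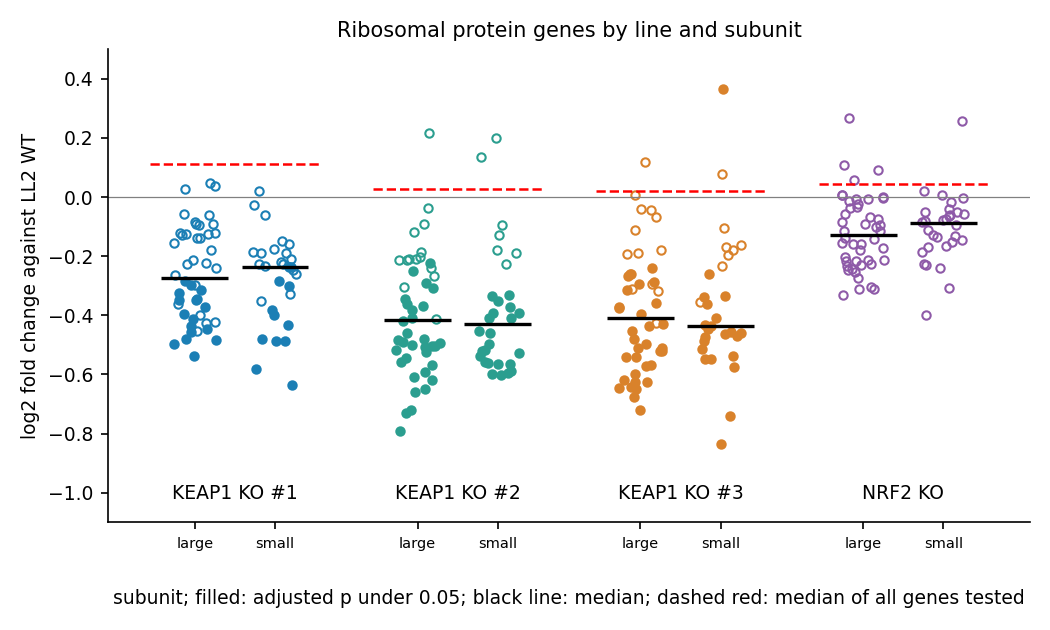
Log2 fold change against LL2 WT of the 76 genes in each KO line, split by subunit, with filled points for adjusted p under 0.05 (limma), black lines for medians and dashed red lines for the median of all genes tested. The medians of both subunits lie at −0.24 or lower in the 3 *KEAP1* KO clones, below the dashed lines, and no point is filled in *NRF2* KO.

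The 3 clones shared many of these genes: 23 members were called lower in all 3 clones, 49 in both #2 and #3, and all 28 of #1 were also called in #2 or #3. The 23 included the large-subunit genes Rpl3, Rpl7a, Rpl11, Rpl13a, Rpl15, Rpl19, Rpl23, Rpl23a, Rpl26, Rpl27a, Rpl32, Rpl35, Rpl36 and Rpl38 and the small-subunit genes Rps2, Rps3, Rps6, Rps9, Rps10, Rps15, Rps18 and Rps20. The clones were compared with the same LL2 WT samples, so these lists are not independent of each other. Another 17 members were called lower in none of them, among them Rpl4, Rpl5, Rpl22, Rpl29, Rpl30, Rplp0, Rplp1, Rps12, Rps23, Rps24, Rps25 and Rps29. Some of these 17 have a near-identical row that was called lower. Gm15500 (Rpl5) was lower in #2 and #3 (−0.45 and −0.50, limma adjusted p = 0.0316 and 0.0201). Rpl10a-ps1 (Rpl10a) was lower in all 3 clones (−0.65, −0.68 and −0.75), and Gm11518 (Rpl27) in #2 and #3 (−0.53 and −0.51). Rps23-ps1 (Rps23) and Rps12-ps3 (Rps12) were called in none.

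Rps6 and Rpl32 were among the members with the largest falls in *KEAP1* KO #3. Rps6 (chr4:86854660-86857412), the protein phosphorylated by S6 kinase downstream of mTOR, measured 3890, 3539 and 4831 TPM in LL2 WT, 3310, 2800 and 3134 in *KEAP1* KO #1, 2642, 2639 and 2952 in #2, 2165, 2190 and 2466 in #3 and 3592, 3278 and 3978 in *NRF2* KO. All 9 *KEAP1* KO samples lay below LL2 WT, with *KEAP1* KO #3 lowest. The log2 fold change was −0.84 (SE 0.12, adjusted p = 0.000258 from limma) in #3, −0.56 (adjusted p = 0.00417) in #2 and −0.40 (adjusted p = 0.0352) in #1.

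Rpl32 (chr6:115805505-115808747), of the large subunit, measured 5286, 4850 and 6474 TPM in LL2 WT and 3319, 3217 and 3485 TPM in *KEAP1* KO #3, a log2 fold change of −0.72 (SE 0.11, adjusted p = 0.000251 from limma). The groups did not overlap. *KEAP1* KO #1 (4386, 4039 and 4332 TPM) lay between, and #2 (3454, 3436 and 3549 TPM) overlapped #3.

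The large-subunit genes Rpl28, Rpl13a and Rpl36 led in *KEAP1* KO #2. Rpl28 (chr7:4792874-4795066) measured 976, 755 and 1163 TPM in LL2 WT and 515, 472 and 679 TPM in this clone, a log2 fold change of −0.79 (SE 0.17, adjusted p = 0.00369 from limma). Its LL2 WT samples spread widely, and in *KEAP1* KO #1 (751, 643 and 730 TPM) it missed the threshold (−0.43, adjusted p = 0.09). Rpl13a (chr7:45125558-45128761), known also for a translational silencing role outside the ribosome, measured 3140, 2873 and 4050 TPM in LL2 WT and 1879, 1814 and 2350 TPM in *KEAP1* KO #2 (−0.73, SE 0.14, adjusted p = 0.00171). Rpl36 (chr17:56613416-56614243) measured 2947, 2668 and 3235 TPM and 1645, 1585 and 2186 TPM in the same samples (−0.72, SE 0.13, adjusted p = 0.0014). For all 3 genes the highest sample of the clone lay below the lowest of LL2 WT.

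In *KEAP1* KO #1 the falls were smaller, led by Rps20, Rps18 and Rpl3. Rps20 (chr4:3831334-3835665) measured 890, 805 and 1043 TPM in LL2 WT and 602, 570 and 581 TPM in this clone (−0.64, SE 0.12, adjusted p = 0.00278 from limma). It was as low in the other clones, with 610, 594 and 606 TPM in #2 and 629, 605 and 672 TPM in #3. Rps18 (chr17:33951999-33956001), of the head of the small subunit, measured 6180, 6484 and 7641 TPM in LL2 WT and 4899, 4284 and 4361 TPM in *KEAP1* KO #1 (−0.58, SE 0.11, adjusted p = 0.00185). Its levels in #2 (4448, 4439 and 4430 TPM) and #3 (4532, 4437 and 4867 TPM) were in the same range, and those in *NRF2* KO (5416, 5005 and 5962 TPM) stood between. Rpl3 (chr15:80077791-80091868), a core protein near the peptidyl transferase center, measured 2516, 2155 and 3183 TPM in LL2 WT and 1852, 1663 and 1831 TPM in *KEAP1* KO #1 (−0.54, SE 0.14, adjusted p = 0.0135).

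Rps12 was the one member called higher in any clone. Rps12 (chr10:23785183-23787275), a protein of the small subunit's beak, measured 2101, 1930 and 2526 TPM in LL2 WT, 2053, 2254 and 2306 in *KEAP1* KO #1, 2326, 2342 and 2841 in #2, 2583, 2908 and 2925 in #3 and 2457, 2504 and 2834 in *NRF2* KO. The 3 samples of #3 lay above all LL2 WT samples, with 2583 against 2526 TPM for the nearest pair. The log2 fold change was 0.37 (SE 0.12, adjusted p = 0.0325 from limma), and the call was lost in 8 of 28 alternatives, 4 of which left out 1 sample each: LL2 WT replicate 1 (adjusted p = 0.091) or 2 (adjusted p = 0.0983), or the clone's replicate 2 (adjusted p = 0.102) or 3 (adjusted p = 0.0838).

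**Figure D4:**
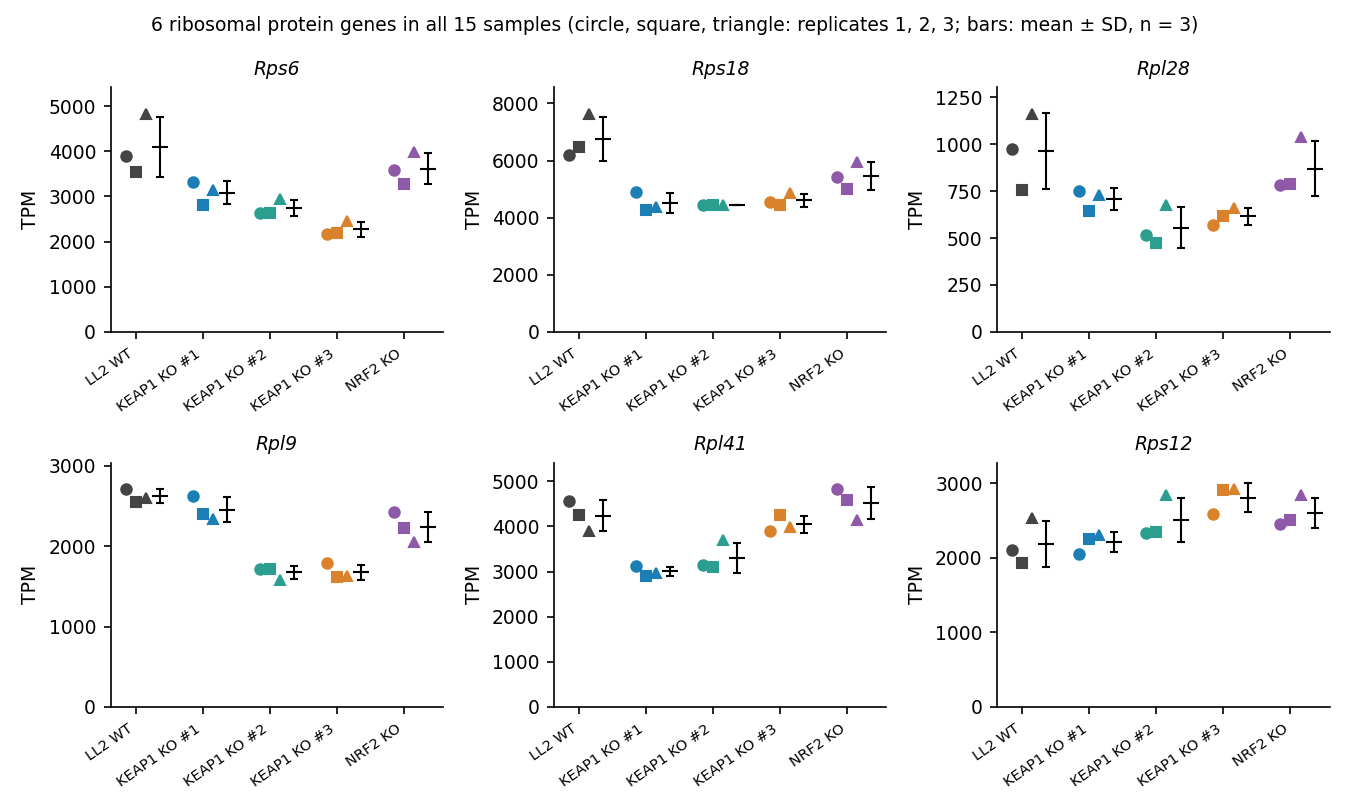
TPM of 6 ribosomal protein genes in the 15 samples, with symbols for replicates 1 to 3 and bars for mean ± SD (n = 3), each panel with its own axis from 0. Rps6 and Rps18 are lower in all 3 *KEAP1* KO clones than in LL2 WT and Rpl28 in #2 and #3, Rpl9 lies near LL2 WT in *KEAP1* KO #1, Rpl41 lies near LL2 WT in #3, and Rps12 is highest in #3 at 2583 to 2925 TPM.

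The members were also read by their role in the ribosome. Of the 6 exit proteins (Rpl19, Rpl23a, Rpl26, Rpl31, Rpl35 and Rpl39), past which the new peptide leaves, 4, 6 and 6 were called lower in the 3 clones, with medians of −0.37, −0.47 and −0.43. Rpl23a measured 5737, 5056 and 7136 TPM in LL2 WT and 3930, 4004 and 4441 TPM in *KEAP1* KO #3. Of the 4 proteins of the stalk and its base (Rplp0, Rplp1, Rplp2 and Rpl12), where elongation factors dock, 0, 2 and 2 were called lower, with medians of −0.07, −0.26 and −0.24. The 2 were Rplp2 (−0.31 in #2 and −0.29 in #3, adjusted p = 0.0121 and 0.0152) and Rpl12 (−0.50 and −0.57, adjusted p = 0.0261 and 0.0142), and Rplp0 and Rplp1 passed in no clone. Rpl12 holds 2.96% of its near-identical group. The row Gm10275 of that group was lower in all 3 clones (−0.51, −0.64 and −0.70, limma adjusted p = 0.0144, 0.00248 and 0.00129). Whether these lists differ from each other was not tested.

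Rpl5 and Rpl11 carry 5S rRNA into the large subunit and bind MDM2 when they are free. Rpl11 measured 723, 552 and 652 TPM in LL2 WT, 559, 508 and 445 in *KEAP1* KO #1, 456, 412 and 486 in #2 and 384, 429 and 435 in #3, and was called lower in all 3 (−0.35, −0.50 and −0.62, limma adjusted p = 0.0412, 0.00451 and 0.00112). Rpl5 measured 83.1, 80.5 and 85.7 TPM in LL2 WT and 70.9 to 105 TPM in the clones, was called in none, and is the member with 3.19% of its near-identical group in its own row. The other row of that group, Gm15500, was called lower in #2 and #3 (−0.45 and −0.50). Mdm2 itself was higher in #2 (1.04, adjusted p = 0.00248) and #3 (1.23, adjusted p = 0.000712).

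Of 10 genes mutated in Diamond-Blackfan anemia, an inherited failure of red cell production (among them Rps7, Rps10, Rps19, Rps24, Rps26, Rps29, Rpl5, Rpl11 and Rpl35a), 3, 5 and 5 were called lower in the clones. Rps19, the gene most often mutated there, measured 1761, 1540 and 2083 TPM in LL2 WT, 1293, 1213 and 1207 in *KEAP1* KO #2 and 1225, 1203 and 1256 in #3 (−0.53 and −0.54, limma adjusted p = 0.00175 and 0.00145). Rps10 was lower in all 3 clones (−0.49, −0.59 and −0.49). Rps26 was lower in #1 (2245, 1916 and 1878 TPM) and #2 (2226, 2250 and 2142 TPM) against 2791, 2639 and 3023 TPM in LL2 WT, and in #3 (2558, 2477 and 2477 TPM) it missed the threshold (−0.17, adjusted p = 0.186). Rps29 measured 5516, 4798 and 5741 TPM in LL2 WT and 5958, 5730 and 5902 TPM in #2, where it was not called. Rps27a, made as a fusion with ubiquitin, was lower in #3 (−0.36, adjusted p = 0.0324) and missed the threshold in #1 (adjusted p = 0.172) and #2 (adjusted p = 0.264).

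The clones were also compared with each other. Between *KEAP1* KO #1 and #2, 8 members were higher and 1 lower in #1, and between #1 and #3, 8 were higher and 2 lower in #1, where all genes were higher in 7.15% and 7.7% and lower in 3.94% and 4.55%. Between #2 and #3, 0 members differed by limma, against 0.389% of all genes higher and 0.375% lower, and an unadjusted p under 0.05 was reached by 7 members. The members' shares were near the background in this fit. After quantile normalization 14 and 16 members were higher in #1 than in #2 and #3, against 6.32% and 6.71% of all genes, and with the replicate block 19 and 18, against 15.5% and 16.7%. The counts also moved with single samples: #1 and #2 differed in 16 members without LL2 WT replicate 3, in 3 without replicate 2 or 3 of #1, and in 1 without replicate 1 of #1 or replicate 1 or 2 of #2. Between #1 and #3 the count was 19 without LL2 WT replicate 3, and 2 to 6 without any 1 replicate of #1, replicate 1 or 2 of #2 or #3, or *NRF2* KO replicate 2. Rpl9 (chr5:65388364-65391444), a large-subunit protein named here after its values were seen, differed most: it measured 2716, 2546 and 2603 TPM in LL2 WT and 2627, 2402 and 2340 TPM in #1, but 1717, 1720 and 1581 TPM in #2 and 1785, 1617 and 1629 TPM in #3. Its samples in #2 and #3 lay far below those of both LL2 WT and #1, and the difference from LL2 WT was −0.65 in #2 (SE 0.09, adjusted p = 0.000132) and −0.65 in #3 (adjusted p = 0.000128), against −0.10 (adjusted p = 0.472) in #1. Rpl41, the smallest ribosomal protein, measured 4574, 4263 and 3892 TPM in LL2 WT and was lower in #1 (3117, 2911 and 2977 TPM, adjusted p = 0.00375) and #2 (3137, 3093 and 3691 TPM, adjusted p = 0.0159), but measured 3893, 4248 and 3992 TPM in #3 (−0.07, adjusted p = 0.649).

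In *NRF2* KO, 0 members were called higher or lower by limma, where 0.13% of all genes were higher and 0.491% lower, and 15 members passed an unadjusted p under 0.05. The median log2 fold change was −0.11, beside 0.04 over all genes, and it was below 0 in 67 of 76 members. It ran from −0.40 in Rps14 (adjusted p = 0.101), a protein of the small subunit's platform, to 0.27 in Rpl10a. All 3 samples lay below every LL2 WT sample in 13 members, where 4.53% of all genes did so. Without LL2 WT replicate 3 the median was −0.02. When samples were weighted by their own spread, 42 members were called lower and 2 higher, where 23.8% of all genes were lower.

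Of the ribosomal proteins outside the name rule, Rack1 gave a call in every clone. Rack1, a scaffold on the small subunit, measured 1735, 1635 and 1907 TPM in LL2 WT, 1233, 1023 and 1098 in *KEAP1* KO #1, 1134, 1119 and 1132 in #2, 979, 985 and 1023 in #3 and 1352, 1437 and 1564 in *NRF2* KO. It was called lower in all 3 clones (−0.66, −0.64 and −0.82, limma adjusted p = 0.000261, 0.000181 and 2.19e-05), and missed the threshold in *NRF2* KO (−0.28, adjusted p = 0.251). Fau, a fusion of a ubiquitin-like protein with Rps30, was lower in #1 (−0.66, adjusted p = 0.00887), and Rps3a1 was called in none.

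Of 9 paralogs of members, 5 were expressed enough to be tested. Rpl22l1 measured 419, 310 and 417 TPM in LL2 WT, 234, 189 and 198 in *KEAP1* KO #1, 227, 225 and 214 in #2 and 265, 237 and 252 in #3, lower in all 3 (−0.88, −0.77 and −0.59, limma adjusted p = 0.0017, 0.00261 and 0.0121). Its partner Rpl22 was called in none, and the ratio of Rpl22l1 to Rpl22 was 0.188 in LL2 WT, 0.112, 0.127 and 0.154 in the clones and 0.155 in *NRF2* KO. The ratios in #3 (0.146 to 0.165) overlapped those in LL2 WT (0.163 to 0.224). Rps27l, a known p53 target, was higher in #2 (0.47, adjusted p = 0.0446) and stood at 0.45 in #3 (adjusted p = 0.0559). The ratio of Rps27l to Rps27 was 0.159 ± 0.0619 in LL2 WT, 0.233 ± 0.0058 in #1, 0.286 ± 0.0082 in #2, 0.263 ± 0.0051 in #3 and 0.211 ± 0.0592 in *NRF2* KO (SD, n = 3). Rpl36al was lower in #1 (−0.29, adjusted p = 0.0265) and #3 (−0.25, adjusted p = 0.0446).

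Other genes of the same system gave calls in both directions. Of 14 translation factors and other genes known for a TOP tract, 4, 4 and 6 were called lower and 0, 1 and 1 higher in the clones. Over all genes, 7.25%, 14.6% and 14.8% were lower and 15.9%, 17.3% and 16.6% higher, and 36.8%, 72.4% and 69.7% of the members were lower. Eif3f, a subunit of initiation factor 3, was lower in #2 and #3 (−0.48 and −0.61, limma adjusted p = 0.0145 and 0.00359), while Pabpc1, the poly-A binding protein, was higher in both (0.51 and 0.54, adjusted p = 0.0104 and 0.00718). Of 9 genes that control ribosomal protein synthesis, with Mdm2, 1, 3 and 1 were higher and 0 lower. Out of 9 genes, the counts higher lie on both sides of the shares of all genes (15.9%, 17.3% and 16.6%). The calls were Larp1, which binds TOP mRNAs, in #1 and #2 (0.29 and 0.28, limma adjusted p = 0.0345 and 0.031), Rptor, a subunit of mTORC1, in #2 (0.39, adjusted p = 0.0259), and Mdm2 in #2 and #3. Myc stood at 0.55, 0.54 and 0.58 and missed the threshold in all 3 (adjusted p = 0.0932, 0.0817 and 0.0641).

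The 25 ribosome biogenesis factors of the nucleolus make rRNA and assemble it with the proteins. Their counts depended on the scaling, on LL2 WT replicate 3 and on whether the fit held the replicate number. In the clones 9, 13 and 6 were called higher and 0 lower, where 15.9%, 17.3% and 16.6% of all genes were higher, with medians of 0.62, 0.60 and 0.53. In *NRF2* KO the median was 0.26, with 0 calls by limma and 1 factor at an unadjusted p under 0.05. Rrn3, which starts RNA polymerase I, stood at 0.73, 0.82 and 0.88, and Gar1, of the H/ACA particle, at 0.74, 0.60 and 0.64. These counts were 1, 6 and 4 after median-ratio scaling, against 9.96%, 15.8% and 15.6% of all genes. Without LL2 WT replicate 3 they were 3, 4 and 2, against 12.5%, 14.2% and 13.95% of all genes, with medians of 0.34, 0.33 and 0.29 in the clones and −0.055 in *NRF2* KO. Out of 25 factors, the counts under either of these settings lie on both sides of the shares of all genes. With the replicate number as a block in the fit they were 21, 24 and 23, against 26.4%, 25.4% and 24.3% of all genes. With sample weights they were 17, 24 and 23, against 31.7%, 34.9% and 31.2%. Within LL2 WT the lists opposed each other: against their own line's mean, replicates 1, 2 and 3 stood at −0.02, −0.16 and 0.20 in the median member and at 0.12, 0.43 and −0.50 in the median biogenesis factor. The part of this in the line differences was not tested.

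The replicate numbers were also compared, as averages over all 5 lines. In replicate 3 (against the mean of replicates 1 and 2, with the line in the model) 27 members (35.5%) were called higher and 0 lower, against 30.7% and 15% of all genes. In replicate 2, 9 members (11.8%) were lower and 0 higher, against 16.6% and 7.66% of all genes. In replicate 1, 0 members were called (3 at an unadjusted p under 0.05, limma), against 0% of all genes. The shares of members called higher or lower were near the background or below it in this fit. The median log2 difference was 0.12 in replicate 3, −0.09 in replicate 2 and −0.02 in replicate 1, beside 0.13, −0.07 and −0.05 over all genes.

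These counts depended on the scaling. Median-ratio scaling moved the median of all genes in replicate 3 from 0.13 to 0.04. After it 4 members were higher and 4 lower in replicate 3, against 22.6% and 22.7% of all genes. In replicate 2, 0 members were lower, against 12.7% of all genes. After quantile normalization 25 members were higher and 3 lower in replicate 3, against 19.5% and 21.5% of all genes, and the median was 0.08 for the members and −0.02 for all genes. The 9 calls in replicate 2 also went to between 0 and 5 without any 1 sample other than LL2 WT replicate 3, *KEAP1* KO #1 replicate 3 and *NRF2* KO replicate 1. Members with the largest shifts included Rpl28 (0.31 in replicate 3, SE 0.07, adjusted p = 0.00512, and −0.24 in replicate 2, adjusted p = 0.0317, limma), Rpl12 (0.30 in replicate 3, SE 0.06, adjusted p = 0.00145) and Rps15a (−0.24 in replicate 2, adjusted p = 0.0396). Rpl28 measured 976, 755 and 1163 TPM in replicates 1, 2 and 3 of LL2 WT, 751, 643 and 730 in *KEAP1* KO #1, 515, 472 and 679 in #2, 570, 618 and 662 in #3 and 784, 786 and 1039 in *NRF2* KO. Replicate 3 was its highest sample in 4 of the 5 lines.

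The lines did not contribute alike. Replicate 3 minus the mean of replicates 1 and 2 was 0.30 on the log2 scale in the median member in LL2 WT (above 0 in 71 of 76), −0.01 in *KEAP1* KO #1 (32), 0.08 in #2 (57), 0.08 in #3 (56) and 0.14 in *NRF2* KO (61), and the share of TPM differed by 3.83, −0.21, 1.07, 0.79 and 1.70 percentage points. The same median over all genes tested was 0.02 in LL2 WT (above 0 in 7523 of 14652), 0.11, 0.13 and 0.16 in the clones and 0.12 in *NRF2* KO. The members thus stood above all genes in LL2 WT and below them in the *KEAP1* KO clones, and this difference was not tested. Without LL2 WT replicate 3, 17 members were higher in replicate 3, and also 17 without *NRF2* KO replicate 3, against 30.46% and 24.67% of all genes. The biogenesis factors were lower in replicate 3 in every line (medians of −0.75, −0.31, −0.32, −0.38 and −0.49, 24 of 25 called lower), and so were the mitochondrial ribosomal proteins (−0.62, −0.28, −0.19, −0.27 and −0.48, 59 of 79 called lower).

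**Figure D5:**
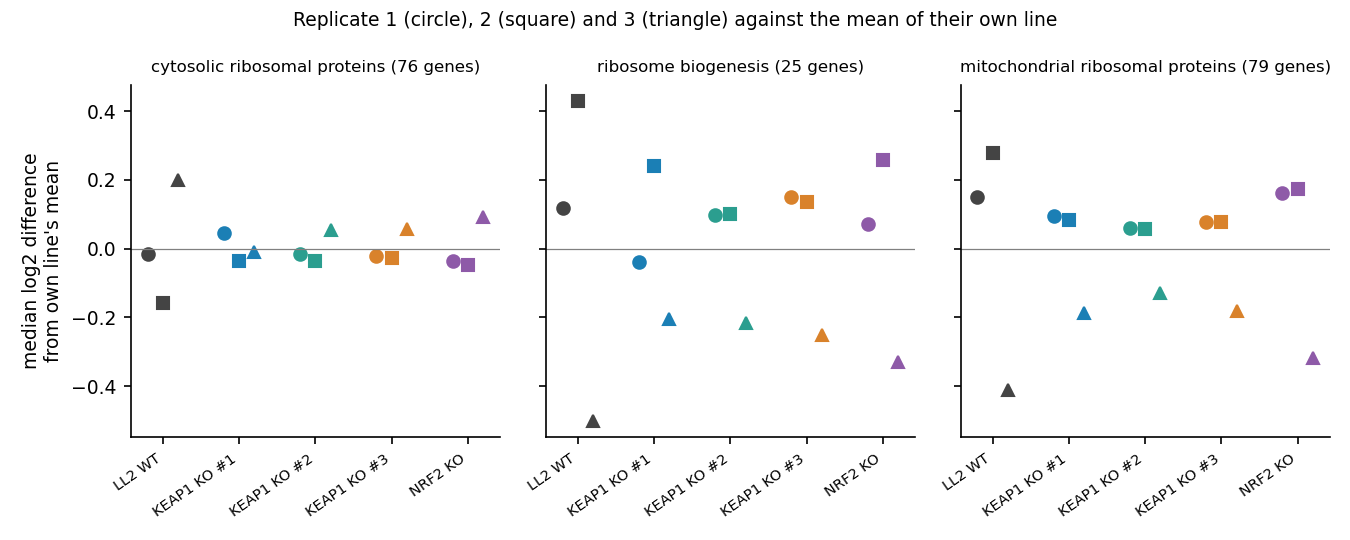
Median log2 difference of each sample from the mean of its own line, for the 76 cytosolic ribosomal proteins, 25 ribosome biogenesis factors and 79 mitochondrial ribosomal proteins, with circles, squares and triangles for replicates 1, 2 and 3. In the first panel LL2 WT replicate 3 is highest at 0.20, and in the others the triangles lie lowest in every line.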

How the data were processed

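The 5 lines were grown in DMEM with fetal bovine serum, and libraries were made from total RNA with a poly-A mRNA kit in 3 biologic replicates per line. Per the paper's methods, the authors pseudoaligned reads with kallisto to GRCm38.p6 transcripts (how transcripts were combined into genes is not given in the sources used here), and the submitters' processing notes also name bcl2fastq 1.9.0 and GRCm39. The authors deposited values named CPM, but these behave as TPM: between 66.5% and 70.9% of low values lie within 0.1 of a whole multiple once the transcript length is used, against 19.7% to 23.4% without it. They are called TPM here, and limma on a log scale was kept as planned. Totals were 999412 to 999525 TPM per sample. A row without a symbol (0.0214% to 0.0491% of TPM) was left out. All 15 samples were used and no pair was identical.

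Genes with a sum of at least 3 TPM over the 15 samples (14652, with 21228 removed) were tested as log2(TPM + 0.1) with limma 3.58.1 in R 4.3.3 (a mean per line, empirical Bayes with a trend), with Benjamini-Hochberg adjustment. Replicate contrasts set a number against the mean of the other two, with the line in the model. The members and lists were chosen with earlier results of these data known. Named members were the 3 with the largest called rise and fall in each contrast, the 5 highest and lowest by mean, Rps6, Rpl41, Rps27a and the role lists, and Rpl9 was added. Some results that this rule covers are left out of the text. Gene positions are from GENCODE (GRCm38) and start windows from RefSeq (GRCm38.p6). Alternatives covered scaling, pseudocount, filter, trend, sample weights, replicate number, pooled or pairwise spread, near-identical rows and single samples left out. The procedure was tested on simulated data.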

Additional observations from a re-analysis of the deposited data

Results flagged for a closer look

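A difference between 2 *KEAP1* KO clones was tested for each member with limma (adjusted p under 0.05 over all genes), and those that passed are listed here in part, with the value after median-ratio scaling in brackets, since that scaling moves *KEAP1* KO #1 against the other clones. They are log2 differences, *KEAP1* KO #1 minus the other clone. Against *KEAP1* KO #2 they included −0.36 in Rps29 (−0.44), 0.27 in Rps3 (0.18), 0.33 in Rpl18 (0.24), 0.36 in Rpl37a (0.27), 0.36 in Rpsa (0.28), 0.47 in Rpl13 (0.38), 0.52 in Rpl31 (0.43) and 0.55 in Rpl9 (0.47). Against *KEAP1* KO #3 they included −0.43 in Rpl41 (−0.53), −0.32 in Rps26 (−0.41), 0.25 in Rps3 (0.15), 0.31 in Rpsa (0.21), 0.35 in Rps14 (0.25), 0.37 in Rpl18 (0.27), 0.42 in Rpl13 (0.32), 0.44 in Rps6 (0.34) and 0.55 in Rpl9 (0.45).

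Rps29, Rpl31 and Rpl9 against #2, and Rpl41, Rps26 and Rpl9 against #3, kept an adjusted p under 0.05 after median-ratio scaling. Rpl9 was the member with the largest difference in both comparisons. No group here had the 4 samples that a search for single outlying samples needs.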

How the results depend on the processing

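The members' median stayed below 0 in the 3 *KEAP1* KO clones under every alternative, but the counts of calls moved. Over the named genes, 393 of 466 values kept their direction and side of the threshold, 73 lost the threshold and 0 changed sign. In *KEAP1* KO #1, #2 and #3, the fit with only the clone and LL2 WT called 1, 21 and 20 members lower, a design of 3 against 3 samples. In *KEAP1* KO #1, 9 were lower after quantile normalization (11.3% of all genes), 18 with no filter and 54 with sample weights (22.9% of all genes). The median there was −0.35 after median-ratio scaling, −0.10 after quantile normalization, −0.31 when members were left out of the scaling and −0.21 with weights. In #2 and #3 the median was −0.29 and −0.29 after quantile normalization and −0.51 and −0.52 with members left out of the scaling. Members called higher numbered 1 in #1 after quantile normalization. In #2 they numbered 1 after quantile normalization and 2 with weights, and 1 with the replicate block and 1 with replicate 3 as a batch. In #3 they numbered 0 with members left out of the scaling, with no filter, in the fit with only the clone and LL2 WT and with near-identical rows, and 2 with weights. In *NRF2* KO, weights gave 42 lower and 2 higher, against 23.8% and 20.5% of all genes. The replicate block and the batch term gave 2 lower each, against 1.95% and 1.73%.

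In replicate 2, members called lower numbered 0 after median-ratio scaling, with no filter and with no line term, 2 without the trend, 1 without LL2 WT, *KEAP1* KO #1 or #2, 2 without *KEAP1* KO #3 and 0 without *NRF2* KO. In replicate 3, members called higher numbered 4 after median-ratio scaling, 13 with no filter, 0 with no line term, and 17, 13 and 11 without LL2 WT, *KEAP1* KO #3 or *NRF2* KO, and members called lower 4 after median-ratio scaling, 3 after quantile normalization and 2 without LL2 WT. Members that differed between *KEAP1* KO #1 and #2 numbered 4 after median-ratio scaling, 14 after quantile normalization, 4 with no filter, 35 with weights, 21 with the replicate block and 22 with the batch term. Between #1 and #3 these were 4, 18, 3, 34, 21 and 22, and between #2 and #3 weights gave 12. The calls over all genes moved too. With weights 21.3% of all genes were higher and 10.9% lower in #1 than in #2, and 20.2% and 9.37% in #1 than in #3. With the replicate block these shares were 15.5% and 8.17%, and 16.7% and 8.78%. After median-ratio scaling they were 5.43% and 5.69%, and 5.52% and 6.56%. Between #2 and #3 weights gave 5.45% and 4.68%.

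The share of TPM was 25.2%, 20.7%, 18.9%, 19.2% and 22.9% (LL2 WT, *KEAP1* KO #1, #2, #3, *NRF2* KO) with near-identical rows, 19.0%, 17.4%, 17.7% and 21.1% in the KO lines with pseudogene-named rows, and 16.8% and 17.0% in #2 and #3 with the ribosomal proteins of other names. Leaving out 1 sample at a time, members lower in *KEAP1* KO #1 ranged from 11 to 43, and higher in #3 from 0 to 1. The medians ranged from −0.33 to −0.17 in #1, −0.50 to −0.35 in #2, −0.49 to −0.33 in #3 and −0.20 to −0.018 in *NRF2* KO. Members lower in replicate 2 ranged from 0 to 10, higher in replicate 3 from 17 to 29 and lower from 0 to 2, and those differing between #1 and #2 from 1 to 16 and between #1 and #3 from 2 to 19.

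Pairing by replicate number held in part: the correlation of 2 samples' differences from their line means, across 11676 genes, had a median of 0.276 in the 30 pairs with the same number (−0.0221 to 0.631) and −0.192 in the 60 pairs with different numbers. With the replicate block, 39, 62 and 59 members were called lower in the 3 clones, against 14.4%, 22.7% and 22.9% of all genes. The causes of these changes were not tested. The number of fragments is known only approximately, so no counting error is given.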
